A study of Mus musculus with 6 samples.

Results

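Aldh1l1, Sparcl1, Clu and Glul are 4 genes widely used as markers of astrocytes, and they are 4 of the 12151 genes in the deposited expression table of cultured mouse glioma cells. They were taken by symbol, and all 4 symbols were found. The cells came in 2 forms. The mNS cells, labelled as neurosphere-forming glioma stem-like cells, were kept as neurospheres in DMEM/F12 with B-27, basic fibroblast growth factor, epidermal growth factor and heparin, and were harvested at passages 72, 77 and 85. The GL261 cells, a mouse glioma line labelled as differentiated glioma cells, were kept in DMEM with fetal bovine serum and were harvested at passages 17, 33 and 34. The passage field of the last of these says 33 while its title says 34. Both media held L-glutamine and β-mercaptoethanol. Each group therefore had 3 libraries, 1 per passage, and the labels do not call them separate cultures, so a p-value reflects library-to-library spread, which may be technical. The cell form, its medium and its passage numbers all differed between the groups, and their parts in a difference cannot be told apart.

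Astrocytes supply neurons with metabolites, clear transmitters from the synapse and secrete proteins that shape synapses, and the 4 genes stand for these tasks. Aldh1l1 encodes the cytosolic formyltetrahydrofolate dehydrogenase, which removes formyl groups from the folate pool and is among the most general markers of astrocytes in the mouse brain. Glul encodes glutamine synthetase, the enzyme with which astrocytes join glutamate and ammonia into glutamine. Sparcl1 encodes hevin, a secreted matricellular glycoprotein that promotes the formation of excitatory synapses. Clu encodes clusterin, also called apolipoprotein J, a secreted chaperone that carries lipids and restrains complement. Outside astrocytes Sparcl1 is made by vessel cells, Clu by many epithelia, and Glul by liver, muscle and oligodendrocytes.

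The libraries held between 12534422 and 14225175 reads in the listed genes. Values are CPM, the reads of a gene scaled to a common library size, so that 1 read equals 0.0708 to 0.0773 CPM. Intervals on single libraries are exact 95% Poisson intervals of the reads and cover counting error only. The test, limma with a threshold of 0.05 on the adjusted p, took the 12006 genes whose mean reached 1 CPM. It called 64.3% of them different between mNS and GL261, with 32.2% higher and 32.1% lower in mNS. Of the called genes 50.1% were higher in mNS, or 58.2% when every column was set to the same sum. For 69.9% no mNS library overlapped the GL261 range. All 4 marker genes were among the called and did not overlap, a count that stands against these high shares. Aldh1l1 passed the minimum level only through its GL261 libraries.

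Aldh1l1, the folate enzyme, was read in GL261 and not in mNS. It had 0 reads at each of passages 72, 77 and 85 of mNS, and 50, 133 and 151 reads at passages 17, 33 and 34 of GL261. These counts equal 0 CPM in every mNS library, against 3.73, 9.94 and 10.9 CPM in the GL261 libraries. A count of 0 allows levels of up to 0.226, 0.232 and 0.212 CPM in the 3 mNS libraries when the limit is set at 3 reads. The two-sided intervals drawn in the plot by library reach slightly higher for 0 reads, to 0.278, 0.285 and 0.261 CPM. The groups lay far apart, and the GL261 library of passage 17 lay below the later passages, with a counting interval of 2.77 to 4.91 CPM that stayed clear of the 8.32 to 11.8 CPM of passage 33. The GL261 mean was 8.19 ± 3.90 CPM (SD, n = 3), so the level in mNS was at least 36.6-fold lower against the limit of 3 reads per library. With a library left out this bound lay between 30.6-fold (without GL261 passage 34) and 46.6-fold (without GL261 passage 17). On the scale of log2(CPM + 1) the difference was -3.09 ± 0.32 (SE; limma adjusted p = 4.95e-05), a scale that understates the change of a gene this low and on which the value depends on the pseudocount (-3.99 at 0.5 and -6.23 at 0.1). In bulk libraries such as these, fewer cells of a type and less RNA per cell cannot be told apart. The gene lies on chromosome 6 at 90486427 to 90600203 of GRCm38, on the plus strand, and is protein-coding. In the annotation its exons overlap those of Gm15756 on the opposite strand and of Gm45901 on the same strand, and the sources used here do not say whether reads were counted by strand.

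Glul, the glutamine synthetase gene, was lower in mNS, by an amount that differed with the GL261 passage it is set against. Its levels were 83.4, 77.5 and 75.5 CPM at mNS passages 72, 77 and 85, against 235, 111 and 113 CPM at GL261 passages 17, 33 and 34. The mNS libraries lay within a narrow band below every GL261 library, while passage 17 of GL261 stood alone at more than the level of the other passages combined. The means were 78.8 ± 4.10 CPM in mNS and 153 ± 71.0 CPM in GL261 (SD, n = 3 each), which is 1.94-fold lower in mNS. The log2 difference was -0.86 ± 0.25 (SE; limma adjusted p = 0.0158). Without the GL261 library of passage 17 it was -0.50 ± 0.07 (adjusted p = 3.22e-04) and the fold was 1.42. Glul lies on the plus strand of chromosome 1 at 153899944 to 153909723. Its exons overlap the opposite-strand gene Teddm2 and hold the microRNA gene Mir8114.

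Promoters are shown for Aldh1l1 and Glul only, because the promoter set used here held none for Sparcl1 or Clu. The sequences are the 250 bases before the RefSeq start in GRCm38.p6, both on the plus strand, read 5′ to 3′. The Aldh1l1 start used here lies inside the gene as annotated above. Capitals mark matches, on either strand, to the CCAAT box (CCAAT) and the GC box (GGGCGG).
Aldh1l1, chr6:90550543-90550792: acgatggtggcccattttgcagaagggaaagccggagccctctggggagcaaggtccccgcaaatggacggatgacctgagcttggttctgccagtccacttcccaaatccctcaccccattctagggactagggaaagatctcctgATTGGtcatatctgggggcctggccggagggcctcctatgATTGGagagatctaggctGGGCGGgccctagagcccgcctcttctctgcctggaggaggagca
Glul, chr1:153899679-153899928: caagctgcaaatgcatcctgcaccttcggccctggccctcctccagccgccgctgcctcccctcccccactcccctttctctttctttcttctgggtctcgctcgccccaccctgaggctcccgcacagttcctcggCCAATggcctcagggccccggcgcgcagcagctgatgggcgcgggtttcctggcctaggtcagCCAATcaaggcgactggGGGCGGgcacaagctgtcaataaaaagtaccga
Each promoter held 2 CCAAT matches and 1 GC box match. The CCAAT matches began at -103 and -63 in Aldh1l1 and at -113 and -50 in Glul, counted from the start, and the GC box matches at -45 and -33. Of 32851 promoter windows of this length in RefSeq, 33.8% held at least 1 CCAAT match, 10.1% held 2 or more, and 32.7% held a GC box match. A STAT site (TTCNNNGAA) had no match in these 2 windows and was found in 7.02% of all windows. These matches describe the letters only.

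**Figure D1:**
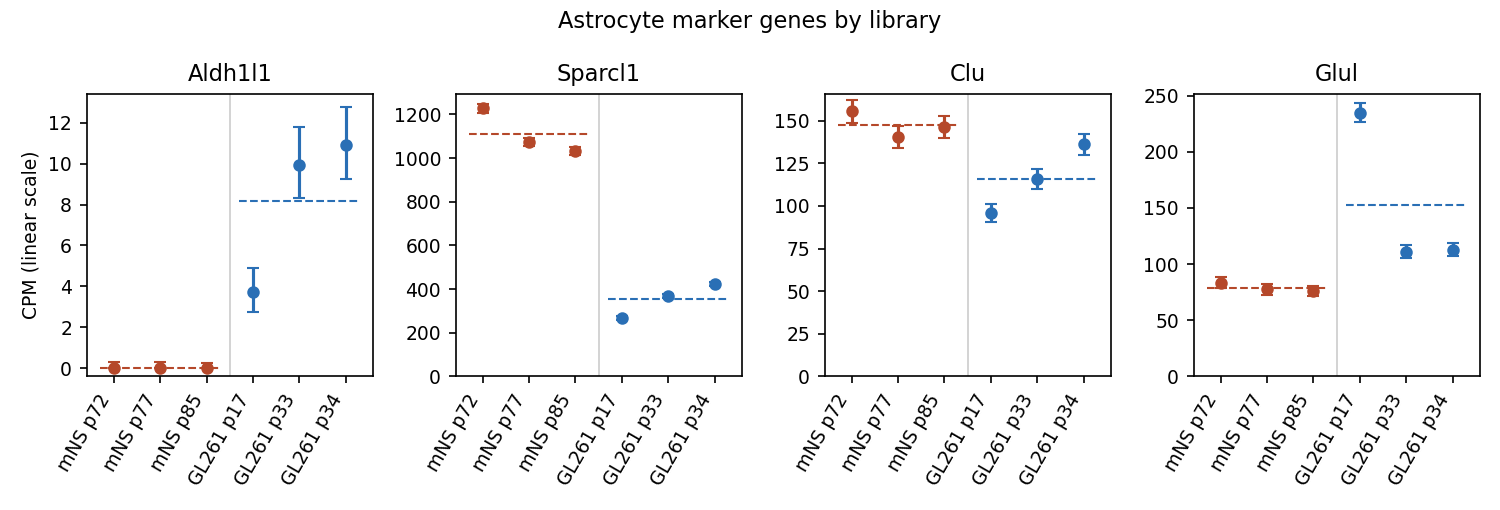
CPM of the 4 genes on a linear axis, with mNS libraries (passages 72, 77 and 85) left of GL261 libraries (passages 17, 33 and 34). Points are single libraries, bars are exact 95% Poisson intervals of the reads and dashed lines are group means; Aldh1l1 had no read in mNS, Glul stood at 235 CPM at GL261 passage 17, and the highest Clu value in GL261 lay just below the lowest in mNS.

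Sparcl1, the hevin gene, was the most abundant of the 4 and was higher in mNS. It stood at 1228, 1073 and 1032 CPM at mNS passages 72, 77 and 85, against 267, 368 and 423 CPM at GL261 passages 17, 33 and 34. Every mNS library lay above every GL261 library, and the lowest mNS value was more than the highest GL261 value by a wide margin. The means were 1111 ± 103 CPM in mNS and 353 ± 78.8 CPM in GL261, a 3.15-fold rise. The difference on the log2(CPM + 1) scale was 1.67 ± 0.15 (SE; adjusted p = 2.08e-05 in limma). With any library left out the fold lay between 2.81 and 3.50. Sparcl1 spans 104079111 to 104113733 on the minus strand of chromosome 5, where the antisense gene Gm26703 overlaps it outside the exons.

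Clu, the clusterin gene, changed least. Its levels were 156, 140 and 146 CPM at mNS passages 72, 77 and 85, against 95.9, 116 and 136 CPM at GL261 passages 17, 33 and 34. The groups did not overlap, but the lowest mNS value and the highest GL261 value were within counting error of each other, with intervals of 134 to 147 CPM and of 130 to 143 CPM. The means were 147 ± 7.65 CPM in mNS and 116 ± 20.2 CPM in GL261, a 1.27-fold rise. On the log2(CPM + 1) scale this was 0.36 ± 0.12 (SE; adjusted p = 0.0253 in limma). The call was lost without the GL261 library of passage 33 (adjusted p = 0.0619), the mNS library of passage 72 (0.0719) or that of passage 85 (0.0527), and the difference was 0.23 without the GL261 library of passage 17. Clu lies on the plus strand of chromosome 14 at 65968483 to 65981547, and no other annotated gene overlaps it.

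Set against all tested genes, the 4 differences ran from among the larger to the ordinary. An absolute log2 difference at least as large was found in 2.91% of tested genes for Aldh1l1, in 9.80% for Sparcl1, in 23.8% for Glul and in 54.1% for Clu. The median absolute difference of all tested genes was 0.40. Sparcl1 and Clu were higher in mNS, and Aldh1l1 and Glul were lower. The 95% limma intervals were 1.33 to 2.02 for Sparcl1, 0.09 to 0.62 for Clu, -3.82 to -2.35 for Aldh1l1 and -1.43 to -0.28 for Glul.

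**Figure D2:**
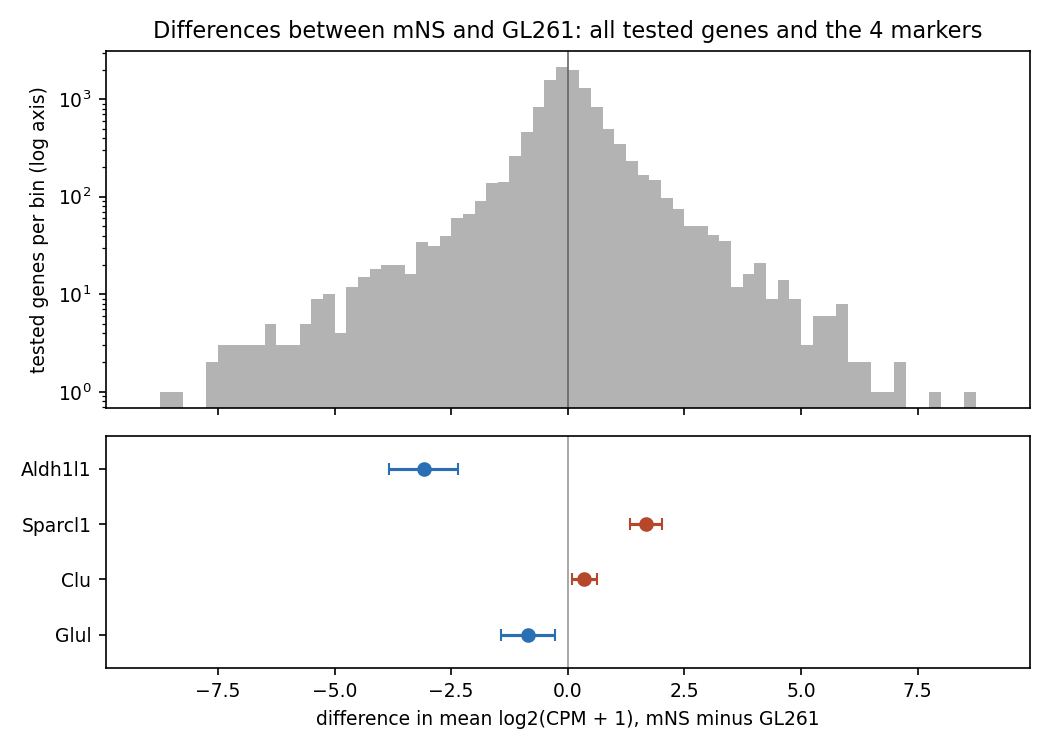
Upper panel: number of tested genes (log axis) per 0.25-wide bin of the difference in mean log2(CPM + 1), mNS minus GL261. Lower panel: the 4 genes on the same horizontal axis as points with 95% limma intervals; Aldh1l1 at -3.09 lies in the left flank of the distribution, Sparcl1 at 1.67 in the right flank, and Clu at 0.36 within its bulk.

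The proportions between the 4 genes within a library therefore differed between the cell forms. The log2 ratio of Sparcl1 to Clu, both taken as CPM + 1, was 2.90 ± 0.08 in mNS and 1.59 ± 0.10 in GL261 (SD, n = 3 each). This ratio varied little within either group, although both genes differed between GL261 passages. The log2 ratio of Clu to Glul was 0.90 ± 0.05 in mNS and -0.32 ± 0.84 in GL261, and that of Sparcl1 to Glul was 3.80 ± 0.06 in mNS and 1.27 ± 0.94 in GL261. Of single tested genes 69.9% did not overlap between the groups, and the share over all pairs of genes was not computed. All 6 pairs of the 4 genes gave ratios that did not overlap. For pairs of a gene higher in mNS with a gene lower in mNS, this was fixed by the single-gene values. Only the ratios of Sparcl1 to Clu and of Aldh1l1 to Glul were free to overlap. Each of the 6 pairs had an exact two-sided permutation p of 0.1, also after adjustment over the 6 pairs. This is the smallest p that 3 libraries against 3 can give.

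Levels of different genes were compared per kilobase of annotated exon. In mNS the order was Sparcl1 at 378 ± 35.2, Clu at 42.9 ± 2.23, Glul at 23.7 ± 1.24 and Aldh1l1 at 0 CPM per kilobase, with no overlap between neighbours. In GL261 it was Sparcl1 at 120 ± 26.8, Glul at 46.0 ± 21.4, Clu at 33.7 ± 5.86 and Aldh1l1 at 1.81 ± 0.863 CPM per kilobase. There Glul and Clu overlapped, with ranges of 33.4 to 70.7 and 27.9 to 39.6 CPM per kilobase, and did not differ beyond their spread. Among the 12073 genes with an annotated length, Sparcl1 lay at percentiles of 99.6 to 99.7 in the mNS libraries and of 96.1 to 98.1 in GL261. Aldh1l1 reached percentiles of 11.9, 23.3 and 24.4 at GL261 passages 17, 33 and 34, so that it was among the less abundant of the listed genes there too.

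The GL261 library of passage 17 lay outside the range of passages 33 and 34 in all 4 genes. The share of all tested genes for which this held was not computed, so the count is no trait of the 4 genes. The counting intervals of passages 33 and 34 overlapped for Aldh1l1 and Glul but not for Sparcl1 and Clu. Clu stood at 95.9, 116 and 136 CPM at GL261 passages 17, 33 and 34. These near-even steps cover unlike spans of passages and give no trend with passage. Passages 33 and 34 are adjacent by title and the same by the passage field. The mNS libraries lay closer together for Sparcl1, Clu and Glul, and Aldh1l1, at 0 reads in each, gives no measure of spread there. Aldh1l1 at passage 17 was 0.358 times its mean at passages 33 and 34, Sparcl1 0.676 times and Clu 0.762 times, whereas Glul was 2.10 times its later mean. A distance between passage 17 and the later passages at least as large, on the log2(CPM + 1) scale, was found in 0.608% of tested genes for Aldh1l1 and in 1.01% for Glul. For Sparcl1 the share was 5.91% and for Clu 13.4%. The early GL261 library was thus low in 3 marker genes and high in the fourth, against 49.1% of all tested genes higher there. Within mNS the same measure between passage 72 and the later passages was reached by 29.6% of tested genes for Sparcl1, 56.1% for Clu and 54.4% for Glul, which is unremarkable. There is 1 library per passage, so these distances carry no test.

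**Figure D3:**
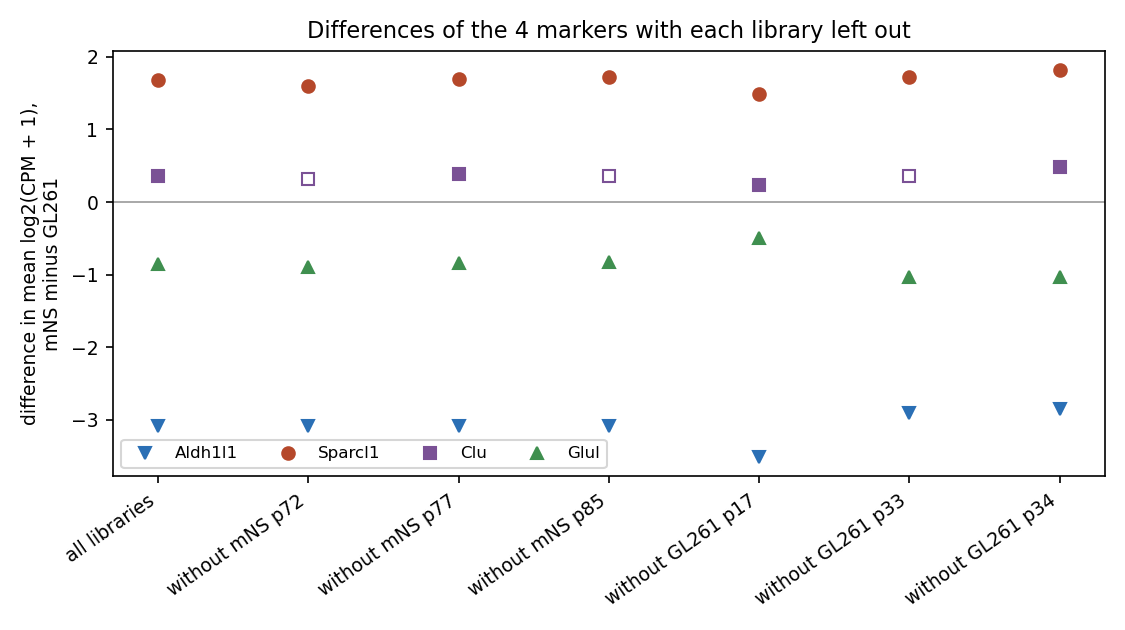
Difference in mean log2(CPM + 1), mNS minus GL261, for the 4 genes with all libraries and with each library left out in turn. Filled symbols passed an adjusted p under 0.05 in limma and open symbols did not; Glul moved to -0.50 without GL261 passage 17, and Clu has open symbols without mNS passage 72, mNS passage 85 or GL261 passage 33.

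Genes with the nearest profiles were found by the Euclidean distance between mean-centred log2(CPM + 1) values over the 6 libraries, among 9939 or 9940 genes whose mean reached 5 CPM, numbered gene models and ribosomal protein genes left out. The correlation r beside each distance is over the same 6 libraries, which fall into 2 groups, and is a description with no test. Aldh1l1 was nearest to Tbc1d30 (distance 0.29), Plat (0.46) and Pltp (0.49), with r of 0.994 to 0.998. Plat, which encodes tissue plasminogen activator, stood at 161, 143 and 137 CPM in mNS and at 507, 1616 and 1494 CPM in GL261 at passages 17, 33 and 34. Like Aldh1l1 it was lower in mNS than in GL261 and lower at GL261 passage 17 than later, a likeness for which it was selected. Glul was nearest to Amt (distance 0.19), Gatm (0.25) and Farp2 (0.33), with r of 0.971 to 0.990. Amt encodes the aminomethyltransferase of the glycine cleavage system and Gatm the amidinotransferase that starts creatine synthesis. Gatm stood at 141, 147 and 146 CPM in mNS and at 407, 228 and 225 CPM in GL261, high at passage 17 as Glul was. Sparcl1 was nearest to the semaphorin receptor gene Plxna1 (0.29), Bex2 (0.30) and Pyroxd2 (0.30), and Clu to Map4k2, Spred3 and Prkag2, at distances of 0.12 to 0.13.

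**Figure D4:**
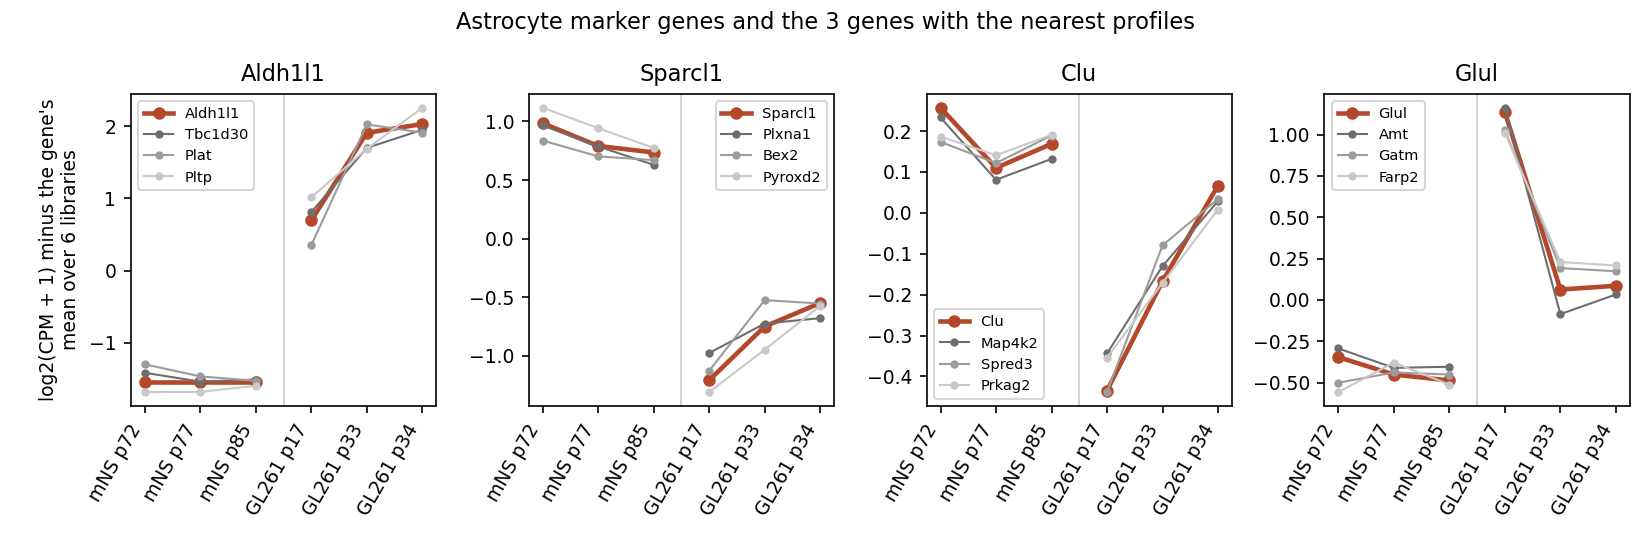
Profiles of the 4 genes (thick lines) and of the 3 genes nearest to each (thin grey lines), as log2(CPM + 1) minus the gene's own mean over the 6 libraries, with mNS passages left of GL261 passages. The profile of Aldh1l1 steps up between GL261 passages 17 and 33 while that of Glul steps down, and the mNS values are nearly level.

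Other astrocyte markers also moved in both directions. Of 41 such genes chosen, 26 were tested, and the other 15 are not analysed here. In mNS 11 rose, 10 fell and 5 were not called, with a median log2 difference of 0.15 against -0.0027 for all tested genes. The share called was 80.8%, against 64.3% of all tested genes, and the difference between these shares was not tested. Fabp7, a fatty acid binding protein of radial glia, rose 27.7-fold, or 42.7-fold without GL261 passage 17. Its means were 89.8 ± 5.88 CPM in mNS and 3.24 ± 2.06 CPM in GL261. Cbs, an enzyme of cysteine synthesis, stood at 49.2 ± 4.56 CPM in mNS and 2.66 ± 0.560 CPM in GL261. Fgfr3, a fibroblast growth factor receptor of astrocytes, fell 514-fold, to 1.70 ± 1.21 CPM in mNS against 872 ± 160 CPM in GL261, or 873-fold without mNS passage 72. The protease gene Htra1 had 3 reads over the mNS libraries and 461 over the GL261 libraries, a ratio of 152 with an exact 95% counting interval of 51.7 to 740.

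Beyond the genes the naming rule took, several classical markers were picked out with their values known. Gfap, the astrocyte intermediate filament gene, had 4 reads in mNS and 141 in GL261, 34.1-fold lower in mNS, or 89.3-fold without mNS passage 72. Its log2 difference was -1.93 ± 0.31. The calcium-binding protein gene S100b stood at 52.1 ± 9.55 CPM in mNS and 225 ± 17.4 CPM in GL261. Aldoc, a glycolytic enzyme gene of astrocytes, stood at 185 ± 18.8 CPM in mNS and 27.5 ± 8.22 CPM in GL261. Slc4a4, a bicarbonate transporter gene, had 303 reads in mNS and none in GL261, at least 33.9-fold higher in mNS, the reverse of the pattern of Aldh1l1. The markers not called were Gja1, Apoe, Mfge8, Dio2 and Ndrg2, and of these Dio2 passed the threshold without GL261 passage 17 (limma adjusted p = 1.75e-04). Gja1, the connexin gene, had an adjusted p of 0.0543 in limma and 0.0455 in edgeR's quasi-likelihood test, and passed without GL261 passage 17 (0.00318) or mNS passage 85 (0.0313). Per kilobase Sparcl1 ranked 1 of 30 astrocyte markers in mNS and 4 of 30 in GL261, where its range overlapped those of Fgfr3 and S100b, and Aldh1l1 ranked 30 in mNS and 20 in GL261.

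**Figure D5:**
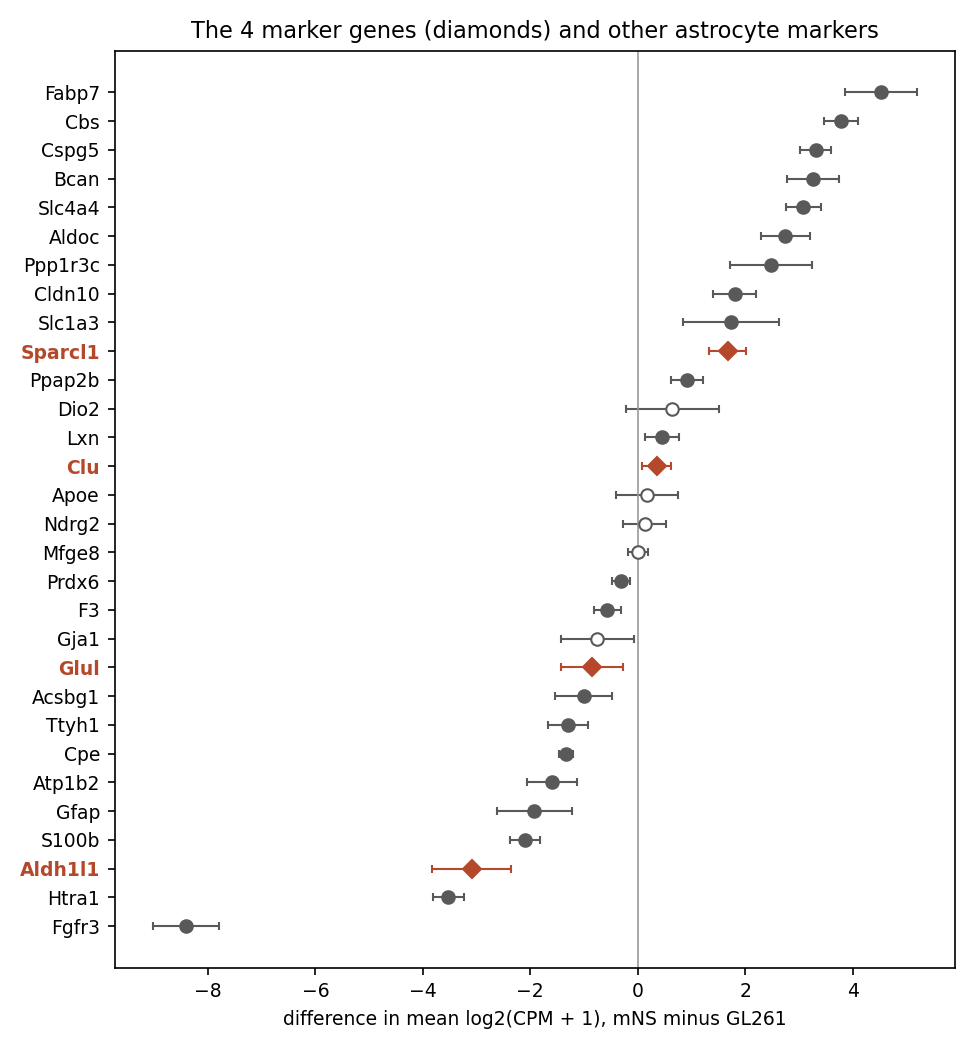
Difference in mean log2(CPM + 1), mNS minus GL261, with 95% limma intervals, for the 4 genes (diamonds) and 26 other astrocyte markers (circles), ordered by value. Filled symbols had an adjusted p under 0.05; the markers spread from Fgfr3 at -8.41 to Fabp7 at 4.53, with the 4 genes spaced along the range.

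Of 21 tested genes linked to reactive astrocytes, 4 rose in mNS and 11 fell, with a median log2 difference of -0.71. The share called was 71.4%, against 64.3% of all tested genes, and the difference from all genes was not tested. The glycosyltransferase gene B3gnt5 stood at 79.7 ± 1.02 CPM in mNS and 4.13 ± 0.499 CPM in GL261, and the iron-binding lipocalin gene Lcn2 at 10.2 ± 6.19 and 0.221 ± 0.127 CPM in mNS and GL261. The other genes that rose were Ggta1 and Cd14. The chemokine gene Cxcl10 fell 10.9-fold, and Osmr, the receptor gene for oncostatin M, fell 11.1-fold to 4.74 ± 1.67 CPM in mNS against 52.8 ± 11.6 CPM in GL261.

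Of 31 tested regulators of astrocyte fate, 6 rose in mNS and 16 fell, and the median log2 difference was -0.18. The share called was 71.0%, against 64.3% of all tested genes. Id3 and Id1, targets of BMP signalling that keep progenitors from other fates, fell 35.5-fold and 20.1-fold, and the Notch target Hes1 fell 20.7-fold. Osmr belongs to this list as well. The gliogenic factor genes Nfia and Nfix were picked out with their values known. They stood at 32.7 ± 1.18 and 3.61 ± 0.543 CPM in mNS, against 50.3 ± 5.76 and 14.2 ± 2.35 CPM in GL261. All regulators named here were lower in mNS, and the 6 that rose are not named.

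Around Aldh1l1, enzymes and carriers of folate metabolism split between directions. Of 22 tested, 6 rose and 8 fell, a share of 63.6% called that is close to that of all genes, with a median log2 difference of -0.14. Without mNS passage 77 the calls numbered 9. Aldh1l2, which encodes the mitochondrial counterpart of the Aldh1l1 enzyme, stood at 161 ± 6.11 CPM in mNS and 266 ± 85.2 CPM in GL261 (log2 difference -0.68 ± 0.18, adjusted p = 0.00952). In every library it was the more abundant of the pair, and in mNS it was present where Aldh1l1 had no read. Shmt2, the mitochondrial serine hydroxymethyltransferase gene, fell 1.59-fold. Of the glycine cleavage system, Gldc stood at 16.4 ± 1.23 CPM in mNS and 3.22 ± 1.45 CPM in GL261, while Amt had 17.2 ± 0.839 and 31.8 ± 17.0 CPM (adjusted p = 0.0488), a call lost without any single mNS library (0.0811, 0.111 and 0.0968). It was also lost at a pseudocount of 0.1 (0.0504), with columns rescaled (0.0761) and in limma without trend (0.0737).

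Around Glul, genes of glutamate and glutamine metabolism and transport split much as all genes did. Of 25 tested, 9 rose in mNS and 7 fell, a share of 64.0% called against 64.3% of all tested genes, with a median log2 difference of 0.18. Slc38a3, a glutamine transporter gene that is prominent in astrocytes, rose most, to 46.5 ± 12.5 CPM in mNS against 0.664 ± 0.124 CPM in GL261. The cystine and glutamate exchanger gene Slc7a11 stood at 138 ± 7.87 CPM in mNS and 16.4 ± 14.7 CPM in GL261, an 8.44-fold rise that was 17.5-fold without GL261 passage 17. The glutamate uptake gene Slc1a3 rose 3.07-fold and the glucosamine synthesis gene Gfpt2 2.87-fold.

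Around Sparcl1, 22 genes of the SPARC family and of synapse-organising proteins that astrocytes secrete were listed, of which 10 were tested and 12 are not analysed here. In mNS 3 rose and 6 fell, a share of 90.0% called against 64.3% of all tested genes, with a median log2 difference of -1.19, and Nlgn2 was not called. Sparc, the close relative of Sparcl1 whose product binds collagen, went the other way from Sparcl1. It stood at 204 ± 20.8 CPM in mNS and 2883 ± 338 CPM in GL261, a 14.1-fold fall (log2 difference -3.81 ± 0.10, adjusted p = 2.37e-08). Per kilobase the ratio of Sparcl1 to Sparc was 7.11 ± 1.37 in mNS and 0.162 ± 0.050 in GL261, so that the more abundant of the pair changed with the cell form. The thrombospondin genes also parted, with Thbs2 at 864 ± 237 CPM in mNS and 46.9 ± 12.4 CPM in GL261 and Thbs1 at 49.8 ± 24.3 CPM in mNS and 292 ± 117 CPM in GL261. Chrdl1, which encodes a BMP antagonist secreted by astrocytes, rose 19.9-fold. Smoc1 was the remaining riser, and its call was lost without mNS passage 72 (adjusted p = 0.0690) and in DESeq2 (0.0604).

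Around Clu, 7 of 18 apolipoprotein, receptor and lipid exporter genes tested rose in mNS and 5 fell, with a median log2 difference of 0.16. The share called was 66.7%, close to the 64.3% of all tested genes. Apod stood at 19.3 ± 7.21 CPM in mNS and 4.03 ± 0.519 CPM in GL261, Apoc1 rose 3.53-fold, and Lrp8, a receptor gene for apolipoprotein E and reelin, rose 2.29-fold. Apoe itself was low in both forms, at 3.81 ± 1.28 CPM in mNS and 3.30 ± 1.34 CPM in GL261. Of the genes that fell, Pltp, the phospholipid transfer protein gene, had 4 reads in mNS and 429 in GL261. Lrp1, Sort1 and Lcat also fell. Among complement components and regulators 5 were tested, of which C3, C1s, Cd46 and Cd59a rose and C4b fell. The share called was thus 100%, against 64.3% of all tested genes, in a list of only 5. C3, the central complement component, stood at 26.9 ± 17.2 CPM in mNS and 0.783 ± 0.429 CPM in GL261.

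Glucocorticoid response genes were listed because Glul is a textbook target of these hormones. Of 16 tested, 7 rose in mNS and 2 fell, a share of 56.2% called that is below the 64.3% of all tested genes, with a median log2 difference of 0.17. The kinase gene Sgk1 stood at 173 ± 16.7 CPM in mNS and 18.5 ± 2.02 CPM in GL261, and Ddit4 rose 2.08-fold. The genes that fell were the phosphatase gene Dusp1, 5.52-fold, and Nr3c1, the glucocorticoid receptor gene, at 64.3 ± 0.898 CPM in mNS and 92.0 ± 7.79 CPM in GL261.

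Markers of other cells that express some of the 4 genes were summed in each library. The oligodendrocyte lineage list had 15 of 17 genes in the table and summed to 1461 to 1671 CPM in mNS and 1647 to 1752 CPM in GL261. Of its 14 tested genes 9 rose in mNS and 4 fell, a share of 92.9% called against 64.3% of all tested genes. Among them the lineage factor gene Olig2 stood at 437 CPM in mNS and 8.54 CPM in GL261. The myelin gene Mbp stood at 33.7 CPM in mNS and 763 CPM in GL261. Endothelial and mural markers, with 3 of 13 genes, summed to 28.4 to 33.6 CPM in mNS and 28.2 to 44.1 CPM in GL261. Microglia and macrophage markers, with 4 of 15 genes, summed to 17.1 to 22.8 CPM in mNS and 8.07 to 8.20 CPM in GL261. Ependymal markers, with 2 of 7 genes, summed to 88.7 to 90.9 CPM in mNS and 24.7 to 45.0 CPM in GL261, nearly all of it Tppp3. Fibroblast markers (6 of 12 genes) summed to 170 to 314 CPM in mNS and 287 to 456 CPM in GL261, and neuron markers (5 of 17) to 482 to 552 CPM in mNS and 382 to 415 CPM in GL261. Neural stem and progenitor markers (10 of 17) summed to 1910 to 2345 CPM in mNS and 2091 to 2290 CPM in GL261. These sums hide single genes that moved in opposite directions. In mNS 2 fibroblast markers rose and 3 fell, 3 neuron markers rose and 2 fell, and 5 stem and progenitor markers rose and 3 fell. The shares called were 83.3%, 100% and 80.0%, against 64.3% of all tested genes. None of the tested markers in these lists was at 0 in all libraries of a group, and the remaining markers of each list are not analysed here. The part of these cell types in the levels of the 4 genes was not tested.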

How the data were processed

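The authors prepared stranded total RNA libraries, per the labels' protocols, with ribosomal RNA removed and single reads taken, as the series' design text says. Per the submitters' processing notes, TopHat2 version 2, HTSeq 0.5.3p9, edgeR 3.4.2 and mm10 were used, with roles not given. The deposited signal is CPM scaled with TMM factors, as the series' design text and the table's name say. Which genes were left out for low counts is not given in those sources. Low values were whole multiples of 1 read, so that 100% of values gave whole reads within 0.001 reads.

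The test was limma 3.58.1 (R 4.3.3; trend, two-sided) on log2(CPM + 1) over the 12006 genes whose mean reached 1 CPM, with Benjamini-Hochberg adjustment; 145 genes lay below. Folds are ratios of mean CPM. Alternatives used edgeR 4.0.16 and DESeq2 1.42.0 on recovered reads, other pseudocounts, filters, scalings and left-out libraries. The tests were tried on simulated data. Marker genes and 16 lists (323 symbols, 207 found, 1 by an older symbol) were chosen with earlier results of these data known. Named genes are the 4 markers, the 3 nearest genes to each, and up to 4 called genes per list with the largest differences (up to 2 by level where none was called). For lists of other cell types, summed levels are given. Positions and lengths come from GENCODE M21 (GRCm38), promoters from RefSeq. Python 3.11.15 with pandas 2.3.3, scipy 1.17.1 and matplotlib 3.10.9 was used.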

Additional observations from a re-analysis of the deposited data

How the results depend on the processing

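The directions of Aldh1l1, Sparcl1, Clu and Glul held under every alternative run. Calls of Aldh1l1 (18 alternatives; a minimum mean of 5 CPM leaves it out) and Sparcl1 (19) held throughout, with adjusted p of up to 4.36e-04 and 1.86e-04. For Aldh1l1, with 0 reads in mNS, leaving out an mNS library could not move the difference from -3.09. Its range with a library left out therefore reflects the GL261 libraries only. At a threshold of 0.01 the calls of Clu (0.36) and Glul (-0.86) were lost. With a library left out, differences ranged from -3.51 to -2.85 for Aldh1l1 (-9.79 in both edgeR tests and -9.22 in DESeq2, fitted values that with 0 reads in mNS are no bound), 1.49 to 1.82 for Sparcl1, 0.23 to 0.48 for Clu (adjusted p 0.00457 to 0.0719) and -1.04 to -0.50 for Glul. Called genes numbered 6081 to 9488 over all alternatives, the highest with array weights, whose estimation stopped short of its tolerance. The folate list had 9 calls at the 0.01 threshold and 9 to 13 with a library left out. The complement list had 2 calls at a minimum mean of 5 CPM. The endothelial list (2 calls, Pdgfrb lower and Notch3 higher in mNS) had 0 at that minimum and 1 to 2 with a library left out. The ependymal list (1 call, Tppp3) had 2 with columns rescaled to a common sum and 2 in limma without trend. Log2 ratios with Aldh1l1 depend on the pseudocount: to Sparcl1 -4.76, but -5.67 at 0.5 and -7.91 at 0.1; to Clu -3.45, but -4.35 and -6.59; to Glul -2.23, but -5.37 at 0.1. Among markers without a call, Apoe was -0.034 under quantile normalisation and -0.038 to 0.41 with a library left out; Mfge8 was -0.011 with median centring, -0.052 with array weights and -0.033 to 0.080 with a library left out; Ndrg2 was -0.060 to 0.32 with a library left out. No scaling moved the median gene by more than 0.09. No paired analysis was possible because replicate numbers are not given in the labels. Reads limit Aldh1l1, Gfap, Htra1 and Pltp in mNS, where 0 to 4 reads were counted.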
